A study of Populus tremula x Populus alba with 3 samples.

Results

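The 5 genes described here are assigned to the plant cell wall and its remodelling by homology alone. Their choice was by poplar gene identifier among the 577 genes of 6 deposited gene lists. They are the poplar homologues of CSLD3 (Potri.001G136200), which is cellulose synthase-like, of the cellulose synthase gene CESA7 (Potri.006G181900), of the xyloglucan endotransglucosylase/hydrolase gene XTH32 (Potri.006G122900), and of the arabinogalactan protein gene AGP14 (Potri.001G004100), and a gene of the pectin lyase-like superfamily (Potri.006G122000). All 5 were found, each matched in the files to 1 Arabidopsis locus that no other listed gene shared.

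The plants were a hybrid of Populus tremula x Populus alba, clone 717-1B4, a laboratory clone widely used for transformation. Wild type plants (WT) were set beside 2 RNA interference lines, KD2 and KD5, made against PtaDML10, a member of the DEMETER-like family of enzymes that remove methylated cytosine from DNA. All 3 genotypes spent 4 weeks in days of 16 h light at 21 °C, 12 weeks in days of 8 h light at 19 °C, and 4 further weeks in short days at 4 °C. From each genotype 15 buds of 15 plants, all taken before any sign of opening, gave 1 whole genome bisulfite library. In such a library an unmethylated cytosine reads as thymine, so the share of reads that keep the cytosine gives the methylation level.

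A growing plant cell is held in a wall of cellulose microfibrils tied together by hemicelluloses such as xyloglucan and embedded in pectin, with proteoglycans such as the arabinogalactan proteins at the plasma membrane and in the wall. Cellulose synthases of the CESA family spin the microfibrils at the plasma membrane. Enzymes of the XTH family cut and rejoin xyloglucan chains, and pectin-cleaving enzymes loosen the matrix. In an apical bud the walls of meristem and leaf primordium cells are altered as growth stops in autumn and again as it restarts in spring.

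The lists are the authors' own comparisons and hold genes that carried a hypermethylated region and changed in expression in the knockdowns. There is 1 list for each pairing of a gene part, promoter or transcribed region, with the sequence around the cytosine (CG, CHG or CHH, where H stands for A, C or T). A promoter entry gives 1 methylation difference for KD2 and 1 for KD5. All are deposited as negative numbers under a title that calls the regions hypermethylated, so each was taken to be WT minus knockdown and is given here as a gain in percentage points. A transcribed region entry gives the coding segments and untranslated regions (UTRs) listed for the gene, read as those that a region overlaps, and no size of the gain. Expression is 1 logFC per gene for both lines together, with its logCPM (the log of a gene's share of all reads, not corrected for gene length) and its false discovery rate (FDR). The log base and the direction of logFC are not stated, so genes are described by sign. With 1 library per genotype there is no replicate check and no p-value for any methylation gain, and since sequencing depth is unknown no interval can be given.

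The 5 genes differed widely in how many lists they entered. CSLD3 was in all 6, and no other of the 577 listed genes was, so that it alone makes up the share of 0.173%. CESA7 and the pectin lyase-like gene were each in 2 lists, as were 21.8% of the listed genes, and XTH32 and AGP14 in 1, as were 71.6% of the listed genes. For the promoter, CSLD3 and CESA7 were listed in CG (8.49% of the listed genes), and CSLD3 alone of the 5 in CHG (5.2%) and CHH (3.64%). In the transcribed region, CG entries covered CSLD3, CESA7 and the pectin lyase-like gene (67.2% of listed genes), and CHG entries covered CSLD3, XTH32, AGP14 and the pectin lyase-like gene (30.8%). CSLD3 was the only one of the 5 with a CHH entry there (21.3%). Both genes assigned to polysaccharide synthesis were thus listed for promoter and transcribed region together, as were 5.2% of the listed genes. The other 3 were listed for the transcribed region alone. Since the 5 genes were chosen with earlier results known, this split is a description only. All 5 had a transcribed region entry, as did 90.8% of the listed genes. A gene enters a list only past the authors' thresholds, so an absent entry does not show that methylation there was unchanged.

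**Figure D1:**
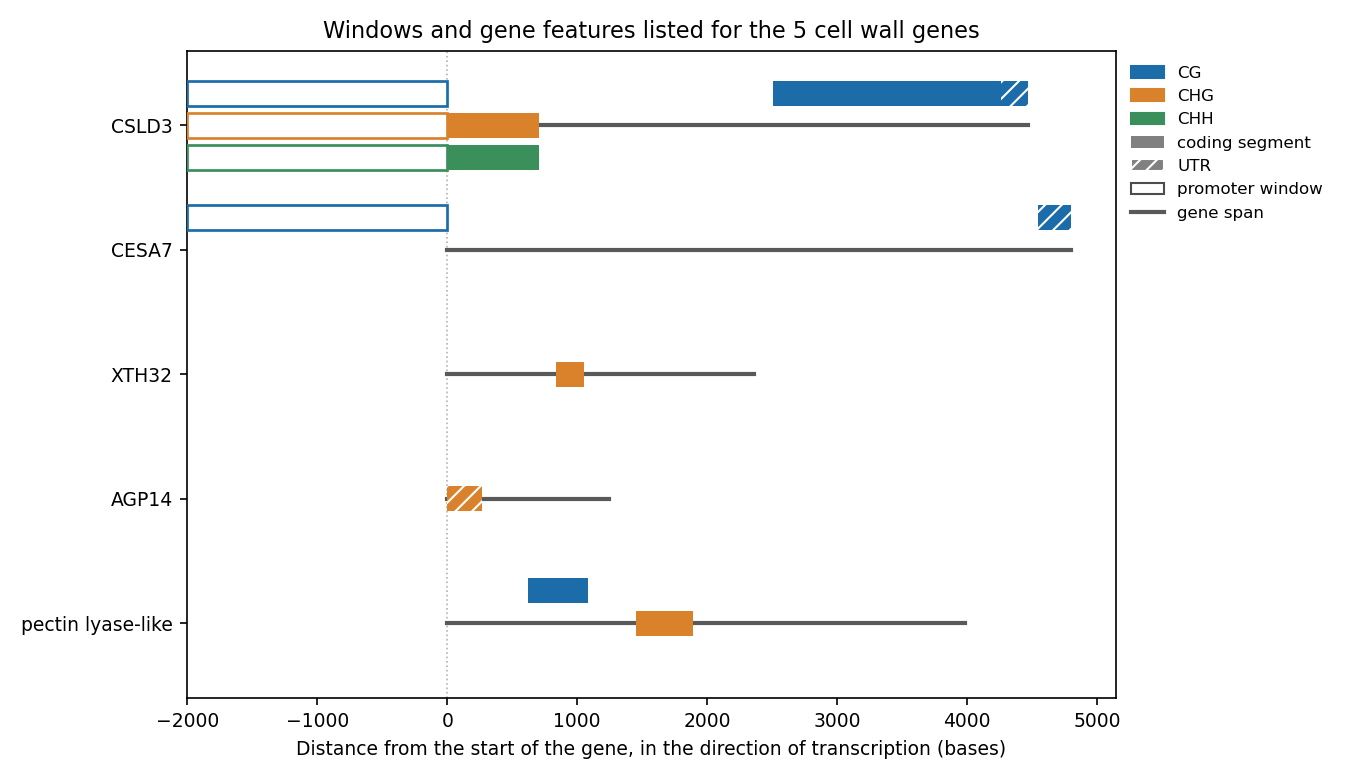
Promoter windows (open boxes) and gene features (filled boxes, hatched for UTRs) listed for the 5 genes in CG, CHG and CHH, drawn by distance in bases from the start of each gene in the direction of transcription, with the gene span as a grey line. CSLD3 has a 2000 base window in each context, drawn up to the start of the gene. Its CHG and CHH coding segment is the first of the gene, and its CG features run from base 2508 to the gene end.

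CSLD3 encodes a cellulose synthase-like enzyme whose Arabidopsis counterpart is needed for the tip growth of root hairs. The poplar gene lies on the minus strand of chromosome 1, from 10924139 to 10928605, 4467 bases with introns, in the coordinates of the deposited tables. Its promoter window, 10928606 to 10930605, is 2000 bases long and abuts the gene with 0 bases between them, as the window of CESA7 does. In CHG and in CHH the feature listed was coding segment 1 (10927902 to 10928605), the first 704 bases of the gene. The lists do not show that methylation runs on from the promoter window into this segment. In CG the features were coding segment 3 (10924347 to 10926098), 1752 bases long, and the 3' UTR behind it (10924139 to 10924346), 208 bases long. The coding segments listed for CG and for CHG were 1803 bases apart. So the feature listed for CHG and CHH was the first of the gene, and those listed for CG ran from base 2508 to base 4467. The lists do not say where within a feature the region lies.

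Entries at the first coding segment were in the minority. Coding segment 1 was listed for 22 of the 178 CHG genes (12.4%) and for 20 of the 123 CHH genes (16.3%). A coding segment of any number was listed for 111 (62.4%) of these CHG genes and 76 (61.8%) of these CHH genes. A coding segment together with the 3' UTR but no 5' UTR, the CG pattern of CSLD3, was listed for 68 of 388 CG genes (17.5%). The deposited CSLD3 gene begins with coding segment 1, so no 5' UTR could be listed for it in any context. Of the 48 genes with coding segments listed in both CG and CHG, 33 had no segment common to both contexts and 15 had at least 1. The number of coding segments per gene was not taken into account. The count therefore cannot show whether the contexts keep to separate parts of genes.

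Every listed promoter gained at least 15 points in both lines, so that CSLD3 gained in both follows from its being listed. Its gain was larger in KD5 in all 3 contexts. In CG, the authors' deposited table gives 22.5 points for KD2 against 28.7 points for KD5. In CHG the gain in the authors' deposited table was 18.7 points for KD2 against 29.5 points for KD5. The CHH entry of the authors' deposited table was 16.1 points for KD2 against 28.1 points for KD5. The 3 values in KD5 lay within a narrow band, whereas those in KD2 were ordered CG, CHG, CHH from high to low.

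Set beside the other listed promoters, the KD5 gain of CSLD3 was high in CHG and above the median in CHH. Its KD2 gain in CHH was among the lowest. In KD5, CSLD3 ranked 4 of 30 promoters in CHG, 8 of 21 in CHH and 22 of 49 in CG, counted from the largest gain in the authors' deposited tables. In KD2 it ranked 16 of 30 in CHG, 18 of 21 in CHH and 17 of 49 in CG of the authors' deposited tables. The KD2 gain in CHH was 0.945 points above the smallest of that table, 15.2 points. The excess of KD5 over KD2 was 6.25 points in CG, where it was also the median of the 49 promoters. It was 10.8 points in CHG (median of 30 promoters 3.23 points, rank 4 from the largest) and 12.0 points in CHH (median of 21 promoters 1.33 points, rank 5 from the largest). KD5 had the larger gain at 77.6% of the CG, 60.0% of the CHG and 52.4% of the CHH promoters. Both lines are set against the same WT library, and each difference between them compares 2 libraries.

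**Figure D2:**
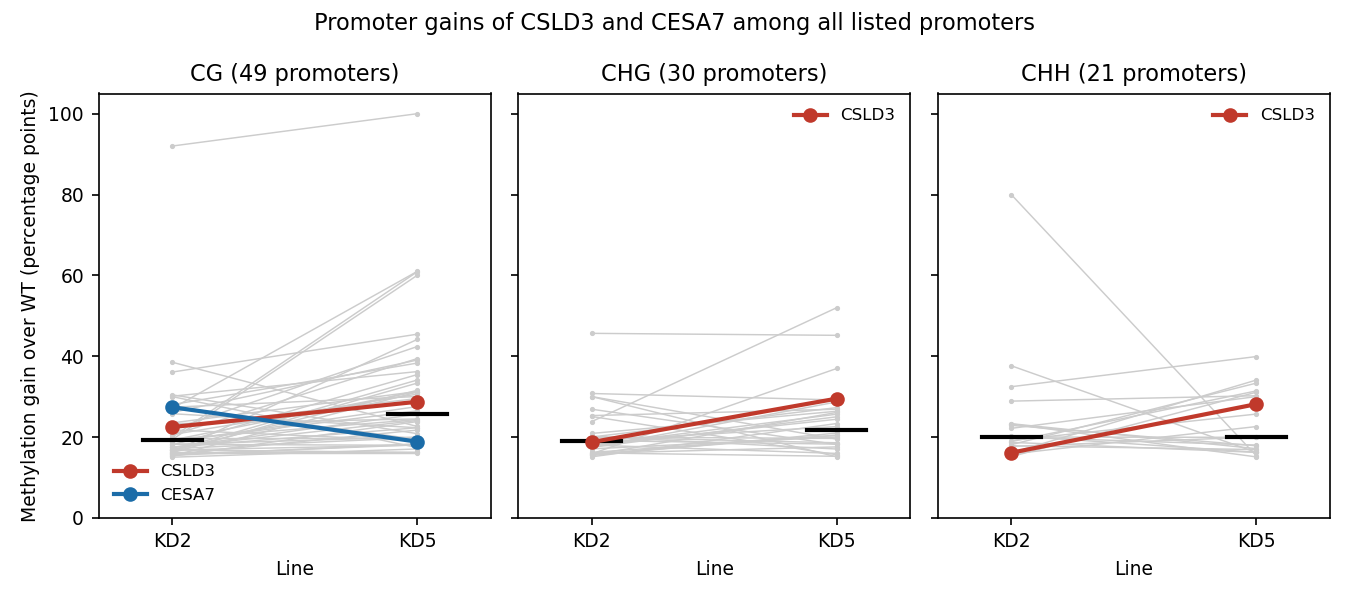
Methylation gain over WT in percentage points for each listed promoter in KD2 and KD5, in CG (49 promoters), CHG (30) and CHH (21). Grey lines join the 2 values of a promoter, black bars are the medians of the table, CSLD3 is red and CESA7 blue. CSLD3 climbs from KD2 to KD5 in all 3 panels, and CESA7 runs the other way in CG.

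CESA7, in Arabidopsis a subunit of the cellulose synthase complex of the secondary wall of xylem, had the opposite order of the lines. In the authors' deposited CG table the gain of its promoter was 27.4 points for KD2 against 18.9 points for KD5. Counted from the largest gain, it ranked 10 of 49 in KD2 and 40 of 49 in KD5. KD2 had the larger gain at 9 of the 49 CG promoters, and the difference at CESA7, KD5 minus KD2, was -8.52 points, rank 4 from the lowest. The CG gain of CESA7 was therefore above that of CSLD3 in KD2 and below it in KD5, and the order of the pair depends on the line.

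The poplar CESA7 gene lies on the minus strand of chromosome 6, from 19610921 to 19615722 (4802 bases), and its promoter window runs from 19615723 to 19617722. In the transcribed region it was listed in CG for the 3' UTR and for no coding segment. That UTR is 203 bases long in 1 of the gene models listed (19610978 to 19611180) and 260 bases long in the other (19610921 to 19611180). A 3' UTR without coding segment or 5' UTR was listed for 43 of 388 CG genes (11.1%). In CG, CESA7 thus had a promoter entry and an entry for the 3' UTR, as CSLD3 did.

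The 2 genes assigned to wall remodelling by annotation lie on the same chromosome. The pectin lyase-like gene, whose superfamily holds enzymes that cleave pectin, lies on the plus strand of chromosome 6 from 9743149 to 9747129 (3981 bases). XTH32, of the family that cuts and rejoins xyloglucan, lies on the minus strand of the same chromosome from 9810612 to 9812975 (2364 bases). There are 63482 bases between them, and each is the nearest listed gene to the other among the 47 listed genes placed on chromosome 6. Such a distance is not unusual: of 499 listed genes with a single span and another listed gene on their chromosome, 20.6% had their nearest one at this distance or less, and the median was 204.0 kb. For CSLD3 the nearest listed gene was 93.3 kb away (Potri.001G134800, logFC 1.35 in the authors' deposited tables). The nearest to CESA7 was 101.4 kb away and had the opposite sign (Potri.006G181100, logFC 1.03 in the authors' deposited table). AGP14 had its nearest at 151.8 kb, also of opposite sign (Potri.001G001300, logFC 1.39 in the authors' deposited tables). The next listed gene beyond XTH32, Potri.006G130700 of the phosphatidic acid phosphatase family, is 900.0 kb from XTH32 and its logFC in the authors' deposited table was positive, at 1.73.

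Both remodelling genes had CHG entries over a coding segment other than the first. For XTH32 the CHG entry covered coding segment 3 (9811923 to 9812140), 218 bases that begin 836 bases into the gene. For the pectin lyase-like gene the CHG entry covered coding segment 3 (9744597 to 9745039), 443 bases long. Its CG entry covered coding segment 2 (9743770 to 9744233), 464 bases long, and 363 bases separate the 2 segments. Coding segments without a UTR, whatever their place in the gene, were listed for 65 of 178 CHG genes (36.5%) and 163 of 388 CG genes (42.0%). Entries of this broader kind were thus common.

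AGP14, in Arabidopsis a short arabinogalactan peptide anchored at the cell surface, is the shortest of the 5 genes. It lies on the plus strand of chromosome 1 from 255877 to 257117 and is 1241 bases long, while the 506 transcribed region genes with a single span had a median of 4237 bases. It was listed in CHG alone, for the 5' UTR (255877 to 256143), the first 267 bases and 21.5% of the gene span. A 5' UTR without any other of the 3 feature types was listed for 10 of 178 CHG genes (5.62%).

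In expression, 4 of the 5 genes had a negative logFC and CSLD3 a positive one. Over the 577 listed genes 51.0% had a negative logFC, so with 5 genes the share of negative signs is not a result about the cell wall. The logFC of CSLD3 in the authors' deposited tables was 1.79, with an FDR of 0.0368. For CESA7, logFC was -1.32 and the FDR 0.00148 in the authors' deposited tables. The logFC of AGP14 was -1.22, with an FDR of 5.13e-04 in the authors' deposited table. For the pectin lyase-like gene the authors' deposited tables give a logFC of -0.94 and an FDR of 3.57e-04. XTH32 stood at -0.84 with an FDR of 0.00863 in the authors' deposited table. The largest absolute logFC of the 5, that of CSLD3, therefore came with the highest FDR, and the smallest FDR belonged to the pectin lyase-like gene. The FDR was below 0.005 for 3 of the 5, CESA7, AGP14 and the pectin lyase-like gene, as for 31.7% of the listed genes. The absolute logFC was at least 1 for 3 of the 5, CSLD3, CESA7 and AGP14, as for 47.8% of the listed genes.

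The genes at both ends of that FDR order were also those with the fewest and the most reads. In the authors' deposited tables logCPM was 1.73 for CSLD3, 3.29 for CESA7, 4.02 for AGP14, 5.39 for XTH32 and 7.74 for the pectin lyase-like gene. Counted from the highest logCPM, CSLD3 ranked 552 of 577 and the pectin lyase-like gene 35. These ranks speak of read numbers and not of transcript levels, since logCPM is not per length. Listed genes, all with an FDR below 0.05, had larger absolute logFC where reads were few. How far this filter sets that was not tested. In the logCPM quintile with the lowest values the smallest positive logFC was 1.15, and in the highest quintile the negative logFC nearest to 0 was -0.62 in the authors' deposited tables. Set beside listed genes of the same sign and quintile, CSLD3 ranked 34 of 81 by absolute logFC, against a median of 1.64 in the authors' deposited tables. CESA7 ranked 9 and AGP14 12 of the same 27 genes, whose median was -1.08 in the authors' deposited tables. XTH32 ranked 25 of 76 (median -0.78) and the pectin lyase-like gene 31 of 108 (median -0.80) in the authors' deposited tables. All 5 therefore had a larger absolute logFC than the median listed gene of their sign and quintile, and none was at the extreme.

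The signs also differed in how usual they were at a given logCPM. CSLD3 was in the lowest quintile, in which 81 of 116 genes had a positive logFC. The pectin lyase-like gene was in the highest, in which 108 of 116 genes had a negative logFC, and XTH32 in the next highest, in which 76 of 115 did. CESA7 and AGP14 were in a quintile in which only 27 of 115 genes had a negative logFC, so theirs is the minority sign there. Whether the link between logCPM and sign bears on these 5 values was not tested.

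**Figure D3:**
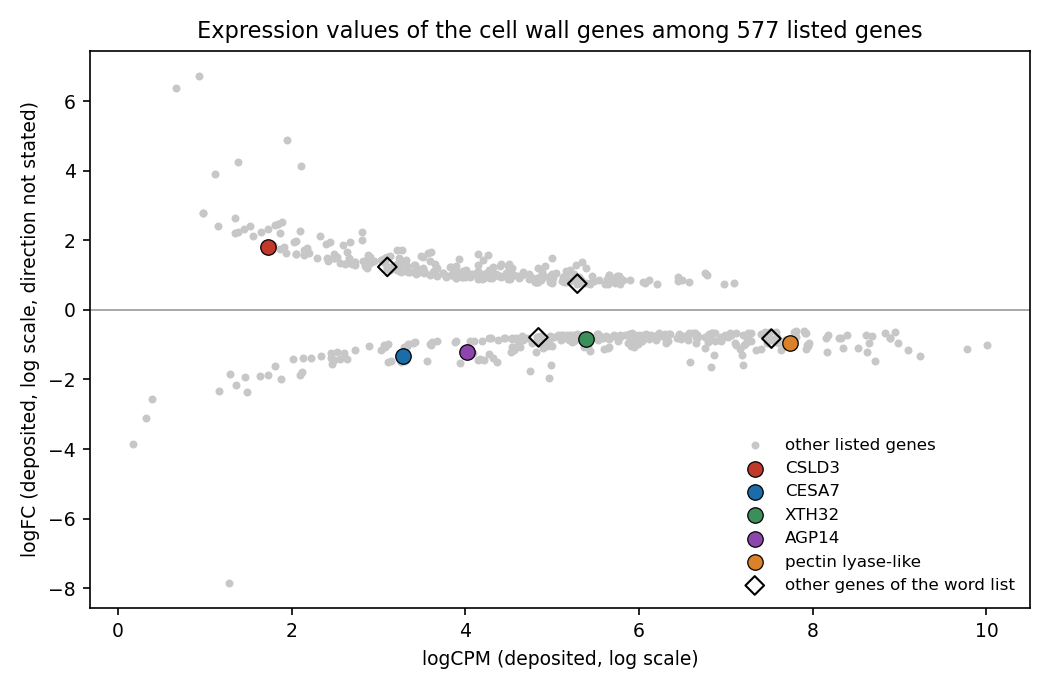
Deposited logFC against deposited logCPM, both on a log scale, for the 577 listed genes (grey), the 5 cell wall genes (coloured) and the other 4 listed genes with a cell wall word in their annotation (open diamonds). CSLD3 sits at a logCPM of 1.73 among genes that are mostly positive, and the other 4 lie in the band of negative values.

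To see how much of the cell wall pathway the lists hold, genes were counted whose annotation contains any of 44 wall words, from cellulose, xylan and xyloglucan to expansin, pectin, extensin, laccase, lignin and callose. The list held 9 genes, 1.56% of the 577, of which 5 are those above. Of the 9, 6 had a negative and 3 a positive logFC (51.0% negative over all listed genes). The median logFC was -0.83 in the list and -0.63 over all listed genes in the authors' deposited tables. Medians mean little here, because no listed gene has a logFC between -0.62 and 0.73 in the authors' deposited tables. No expansin, extensin, pectin methylesterase, callose or lignin synthesis gene was found by these words, apart from a laccase.

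Of the other 4 genes, 2 belong to the wall and 2 match by word only. AGP30 (Potri.011G053600), a second arabinogalactan protein gene, had -0.83 as logFC and 7.52 as logCPM in the authors' deposited table. Like AGP14 it was listed in CHG alone and for the 5' UTR alone, so both listed arabinogalactan genes share the list, the feature and the sign, a likeness seen after the values were known. LAC6 (Potri.014G100600), a laccase, a type of enzyme that oxidises the precursors of lignin, had -0.79 as logFC in the authors' deposited table. Its promoter was listed in CG, with 18.0 points for KD2 against 35.4 points for KD5 in the authors' deposited table. TIC40 (Potri.017G129800), annotated as a hydroxyproline-rich glycoprotein but known as part of the protein import machinery of chloroplasts, stood at 0.75 in the authors' deposited tables. A dolichol-phosphate mannosyltransferase-related gene (Potri.002G245800), of protein glycosylation, stood at 1.24 in the authors' deposited table. Both genes that match by word only had a positive logFC, and they were set apart with the values known. The count kept is therefore 6 negative of 9 genes, beside 51.0% of all listed genes. Of these 9, 5 were chosen with results known, and the other 4 had 2 negative and 2 positive signs. The count is thus not a result about the cell wall.

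**Figure D4:**
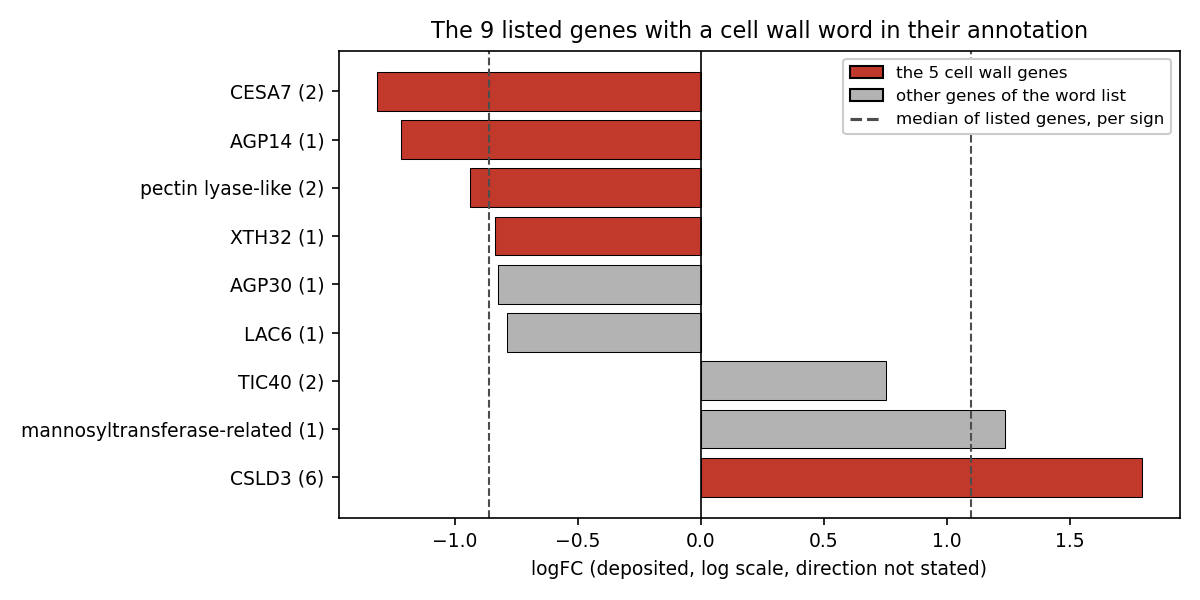
Deposited logFC (log scale, direction not stated) of the 9 listed genes with a cell wall word in their annotation, as bars from 0, with the number of lists holding each gene in brackets. Dashed lines are the medians of all listed genes with a negative logFC (-0.86) and with a positive logFC (1.10), and CSLD3 at 1.79 is the longest bar.

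The genes nearest to the 5 by the lists they entered were of varied annotation. Likeness was counted as the number of the 6 lists in which both or neither of 2 genes stand, and then by nearness in logFC. No gene matched CSLD3 in all 6 lists. The nearest was a Rab5-interacting family gene (Potri.008G102200), alike in 5, and its logFC in the authors' deposited tables was 0.95. A DUF155 gene (Potri.008G092400) and TOC64-III (Potri.015G038600), a receptor-like protein of the chloroplast envelope, followed with 4 lists alike and logFC values of 2.44 and 0.79 by the authors' deposited tables. CESA7 shared its pair of lists with 7 other genes, and the nearest in logFC, an RNA-binding protein gene (Potri.010G216800), had -1.49 in the authors' deposited tables. XTH32 and AGP14 both stood in the CHG list of the transcribed region alone, and so matched each other in all 6 lists, with 66 other genes beside each. The wall gene AGP30, in the same list, was 3rd nearest to XTH32. The pectin lyase-like gene shared its pair with 55 others, the nearest being APO2 (Potri.018G106400) at -0.88 in the authors' deposited tables.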

How the data were processed

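Whole genome bisulfite libraries of WT, KD2 and KD5 (1 each) were processed with Bismark and methylKit, per the submitters' processing notes. The genome build, the versions and all settings are not stated by any source used here. Coordinates are those of the deposited tables, whose gene models carry a Phytozome tag. The methylation differences deposited by the authors are in percentage points. The authors deposited logFC and logCPM values, which may be log2 values although the base is not stated, and a p-value and FDR of expression. The program is not stated, and the expression libraries are not among the 3 samples. All listed FDR values are below 0.05.

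Python 3.11.15 and pandas 2.3.3 were used to join the 6 tables by gene, turn the sign of the differences, rank genes and split them into 5 groups by logCPM. No test was run, as there are no replicates. Counting, ranking and word matching were checked on simulated data.

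The 5 genes, the word list and the rules were chosen with earlier results of these data known. Named were the 5 genes, all genes of the word list, up to 3 genes most alike in lists and logFC, and up to 3 nearest on the chromosome, of which the text gives those that bear on a result. A gene alike to AGP14 is not reported here. The alternatives tried were a stricter gain, the mean of both lines, windows on the chromosome of the identifier, an absolute logFC of at least 1, an FDR below 0.005, narrower words, and promoter or transcribed region tables alone.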

Additional observations from a re-analysis of the deposited data

How the results depend on the processing

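Requiring a promoter gain of at least 1.5 times the smallest of the table in both lines left CSLD3 in 3 lists and CESA7 in 1. All of the promoter entries of both genes were lost, and the CG entry of CSLD3 missed by a narrow margin, with 22.5 points in KD2 against a table minimum of 15 points. The number of lists of XTH32, AGP14 and the pectin lyase-like gene is unaffected by construction, since they have no promoter entry. Taking the mean of both lines in place of each gave CSLD3 25.6 points in CG, 24.1 in CHG and 22.1 in CHH, and CESA7 23.1 points in CG, so that in CG CSLD3 was above CESA7. Every promoter window of CSLD3 and CESA7 lies on the chromosome of its identifier, and that filter changed none of their gains. Of the word list, 2 of 4 genes had a negative logFC at an absolute logFC of at least 1 (34.4% of all listed genes under that filter), and 2 of 3 in the promoter tables alone (66.3%). At an FDR below 0.005, where 64.5% of all listed genes were negative, 4 of 4 were, without CSLD3. With narrower words, which left the 5 genes described here and AGP30, 5 of 6 were (51.0% of all listed genes). In the transcribed region tables alone 5 of 8 were (48.5%). No paired analysis was possible because each genotype has 1 library and the values come from the authors' own comparisons. Leaving out a library was not possible for the same reason. No depth or coverage is known, so small differences between gains cannot be weighed.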

Other observations

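Genes annotated with sugar transfer or UDP-galactose transport, outside the word list, had mostly a positive logFC. The words that define them were chosen after the values were seen, so the count is a description only. Of 5 such genes 4 had a positive logFC, against 49.0% of all listed genes. They were a galactosyltransferase family gene (Potri.002G089800, 1.52), a glycosyl transferase family 4 gene (Potri.006G045700, 1.44), a beta-1,6-N-acetylglucosaminyltransferase family gene (Potri.001G399500, 0.99) and the UDP-galactose transporter gene UTR6 (Potri.017G035800, 0.82), all in the authors' deposited tables. The exception, UGT85A2 (Potri.008G062400), had -0.75 in the authors' deposited table and was the only one of them listed for a promoter. Their logCPM lay between 2.91 and 4.80 in the authors' deposited tables, in the range where most listed genes had a positive logFC.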
